A study of Mus musculus with 12 samples.

Results

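Splicing removes introns from primary transcripts, and the genes described here encode parts of the machine that does it. They are the 65 spliceosome and hnRNP genes among 11385 genes in the raw count table, taken by the start of their symbols and not by any measured value. The choice was made with earlier results of these data known. The rule takes SR proteins (Srsf followed by a digit, 10 genes), subunits of the U2 particle (Sf3a and Sf3b, 8 genes), Sm and other snRNP proteins (Snrp, 10 genes), pre-mRNA processing factors (Prpf followed by a digit, 13 genes), heterogeneous nuclear ribonucleoproteins (Hnrnp, 17 genes) and Lsm1 to Lsm8 (7 genes). Of 73 protein-coding genes of the mouse annotation whose names match it, Srsf12, Sf3b6, Snrpf, Snrpn, Hnrnpa1 and Lsm8 are not analysed here. Hnrnpdl and Hnrnpll carry the older symbols Hnrpdl and Hnrpll in the table, which the rule does not take, and are counted among the splicing regulators below.

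The spliceosome is built from small nuclear RNAs, each wrapped by a ring of Sm or Lsm proteins, and from a large set of further proteins that join and leave during each splicing cycle. The U1 particle marks the start of an intron, the U2 particle with its SF3a and SF3b subunits binds the branch site, and the U4/U6.U5 tri-snRNP brings in the catalytic RNAs around the scaffold protein Prpf8. SR proteins mostly help exons to be recognised, and hnRNP proteins coat nascent transcripts and often act against them. Growing oocytes transcribe heavily and store messages, and transcription stops by the time they are fully grown.

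Mitofusins 1 and 2 are outer-membrane GTPases that fuse mitochondria. Oocytes with both genes (WT) were set beside oocytes without mitofusin 1 (Mfn1-/-), without mitofusin 2 (Mfn2-/-) and without either (Mfn1&2-/-), 3 libraries to each of the 4 groups, and every library came from a pool of 50 germinal-vesicle oocytes freed of cumulus cells. All mice were labelled C57BL/6J, had received no priming and were 21 to 23 days old. The labels do not say by which allele, promoter or Cre the genes were deleted, nor which animals gave which pool, so the p-values rest on the spread between these libraries, which may be technical. Counts were scaled to counts per 1000000 (CPM) with TMM library factors, and a value after ± is the SD over 3 libraries for a CPM and a standard error for a log2 fold change. A change was called where the adjusted p of edgeR's quasi-likelihood F test was below 0.05, with Benjamini-Hochberg adjustment over all 11385 genes. Since CPM are shares of a library, fewer cells of a type and less RNA per cell cannot be told apart, and the amount of RNA per oocyte was not measured.

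Libraries held 11575357 to 16024893 counts, and 3 counts, the most that a count of 0 allows, stood at 0.188 to 0.253 CPM, for counting error only. Mfn1 stood at 279.7 ± 16.4 CPM in WT, 18.1 ± 0.696 in Mfn1-/-, 230.2 ± 14.2 in Mfn2-/- and 20.1 ± 5.87 in Mfn1&2-/-, and Mfn2 at 76.3 ± 9.75, 66.5 ± 3.74, 11.2 ± 2.19 and 10.8 ± 1.31 CPM, so each library matched its label. All 15 oocyte markers searched for were in the table, and their summed level ran from 14136 to 17293 CPM in WT, from 15271 to 17134 in Mfn1-/-, from 17981 to 19846 in Mfn2-/- and from 16337 to 17900 in Mfn1&2-/-. In Mfn2-/- against WT 4 of the 15 were called higher (Bmp15, Oosp1, Zp1 and Mos) and 0 lower, with a median log2 fold change of 0.25. Over all genes 4.52% were called higher there and 6.87% lower. Of 15 granulosa markers 11 were in the table, with summed levels of 515 to 893 CPM in WT, 499 to 514 in Mfn1-/-, 442 to 542 in Mfn2-/- and 489.5 to 514 in Mfn1&2-/-. The highest value was that of WT replicate 3, where Inha, an inhibin subunit, reached 77.9 CPM against 8.55 and 19.8 CPM in the other WT libraries. In Mfn2-/- against WT 0 of the 11 were called higher and 4 lower (Inha, Inhba, Inhbb and Hsd17b1). In Mfn1&2-/- against WT 2 were called lower (Inha and Kitl), against 2.11% of all genes. Fshr was at 0 in 2 libraries and Fst in 1. Of 8 blood, immune and endothelial markers Pecam1 and Kdr were in the table. Their sum ran from 105 to 106 CPM in WT, 93.1 to 116 in Mfn1-/-, 114 to 122 in Mfn2-/- and 130 to 152 in Mfn1&2-/-. Pecam1 was called higher in Mfn1&2-/- than in WT, Mfn1-/- and Mfn2-/-, as were 2.1%, 2.76% and 6.14% of all genes. What part these markers had in the results below was not tested, and the main counts are also given without WT replicate 3.

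All 65 genes were read in every library, the lowest value being 0.583 CPM. Mean levels over the 12 libraries ran from 1.74 CPM for Snrpg, an Sm ring protein, to 645.5 CPM for Prpf8, and 60 of 65 reached 10 CPM. Together they took 0.674% of all counts in WT, 0.657% in Mfn1-/-, 0.611% in Mfn2-/- and 0.660% in Mfn1&2-/-.

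Genes were set in order by CPM per kb of annotated exon, which allows in part for their unequal lengths. Exons of all annotated transcripts of a gene were merged, 22.2 kb for Hnrnpr with 11 transcripts. A gene that uses few of its annotated exons thus stands lower in this order, and which transcripts were present was not examined. The leading gene of each family was Prpf8 at 86.5, Sf3a1 of the U2 particle at 80.1, Hnrnpul2, an hnRNP U relative, at 79.7, Srsf2 (SC35) at 29.0, Snrpb2, a U2 particle protein, at 26.4 and Lsm3 at 26.1 CPM per kb over all libraries. The first 3 of these did not differ beyond their spread in WT, where Hnrnpul2 stood at 86.2 ± 8.79, Prpf8 at 85.6 ± 3.29 and Sf3a1 at 85.3 ± 5.68 CPM per kb. Prpf6, which bridges the tri-snRNP, followed at 66.3 ± 3.73, then Hnrnpc at 55.7 ± 4.17 and Sf3a3 at 52.2 ± 2.84 CPM per kb in WT. At the other end stood Hnrnph3 at 1.01 ± 0.494 and Snrpg at 0.904 ± 0.397 CPM per kb in WT. By median over its genes the Sf3 family was highest at 30.8 CPM per kb, ahead of Prpf at 13.8, Hnrnp at 11.7, Snrp at 9.01, Lsm at 8.80 and Srsf at 6.56.

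**Figure D1:**
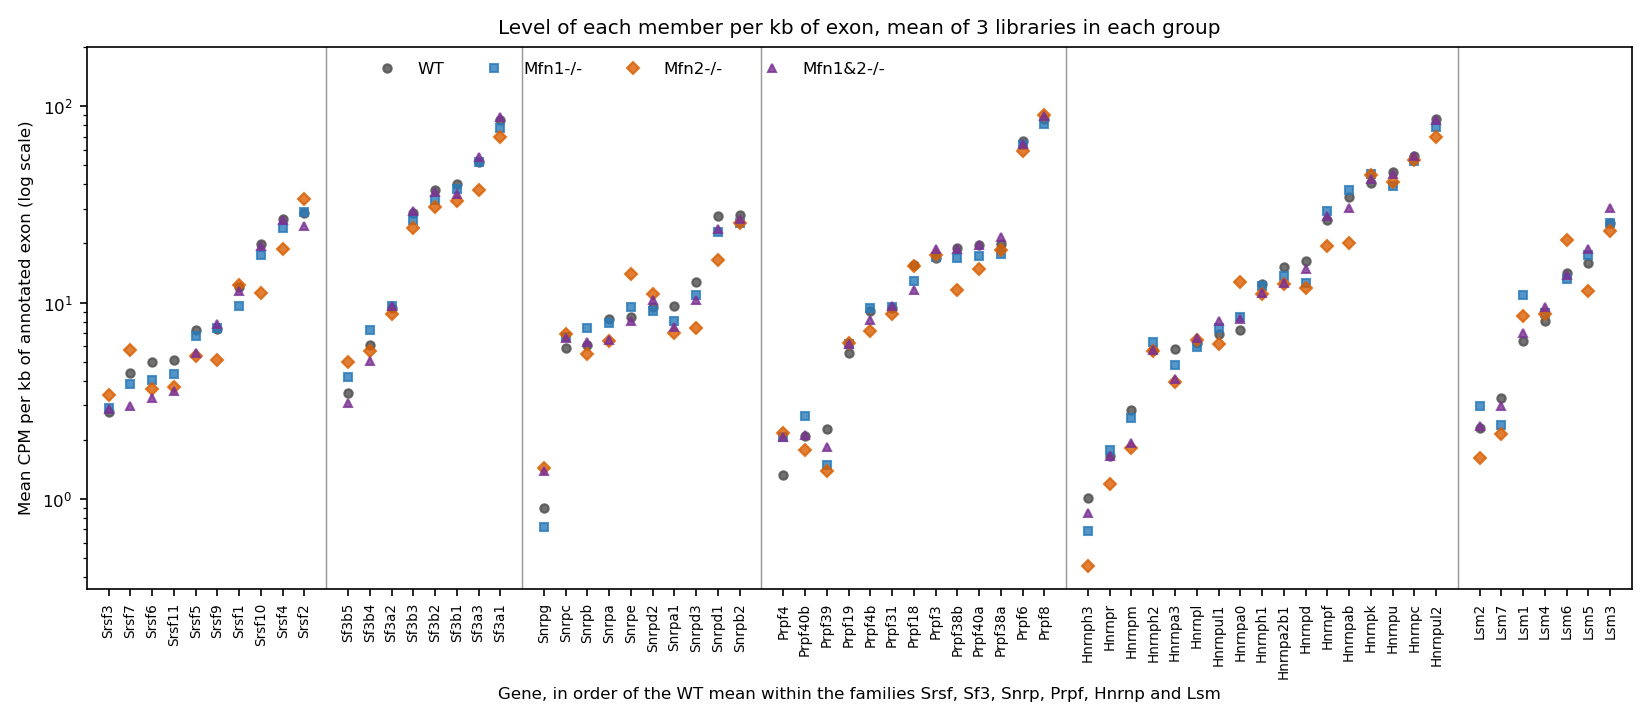
Mean CPM per kb of annotated exon (vertical log axis) of each of the 65 genes, grouped by family and ordered by the WT mean within it, with 1 symbol per group (mean of 3 libraries). Prpf8, Sf3a1 and Hnrnpul2 are the highest in WT, at 85.3 to 86.2, and Hnrnph3 and Snrpg the lowest, at 1.01 and 0.904.

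In Mfn2-/- oocytes 8 of these genes fell and 2 rose against WT. Of 65 genes 10 were called, which is 15.4% against 11.4% of all genes, with 12.3% lower (6.87% of all genes) and 3.08% higher (4.52%). Those that fell encode Sm ring, U2, SR, hnRNP and processing factors, and those that rose are Lsm6 and Hnrnpa0. The median log2 fold change was -0.17 against 0.01 for all genes, and 46 of 65 genes (70.8%) lay below 0 against 48.5% of all genes. The WT and Mfn2-/- libraries did not overlap for 32 of 65 genes, against 3644 of 11385 genes (32%). For 25 of the 65 the Mfn2-/- libraries were the lower ones, against 1810 of 11385 genes (15.9%). DESeq2 called 18 of the 65, against 1690 of 11385 genes (14.8%). For 39 of 65 genes (60%) the group mean was lowest in Mfn2-/-, against 28.6% of all genes. In each Mfn2-/- library by itself the median gene lay 0.17 to 0.18 below the WT mean on the log2 scale, at -0.169, -0.178 and -0.175, whereas the other 9 libraries lay between -0.089 and 0.027. The summed level of the 65 genes was 6645, 6798 and 7137 CPM in the WT libraries and 6167, 5770.1 and 6105 CPM in the Mfn2-/- libraries, which do not overlap. It was 5951, 6856 and 6498 CPM in the Mfn1-/- libraries, the first of which lies within the range of Mfn2-/-.

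**Figure D2:**
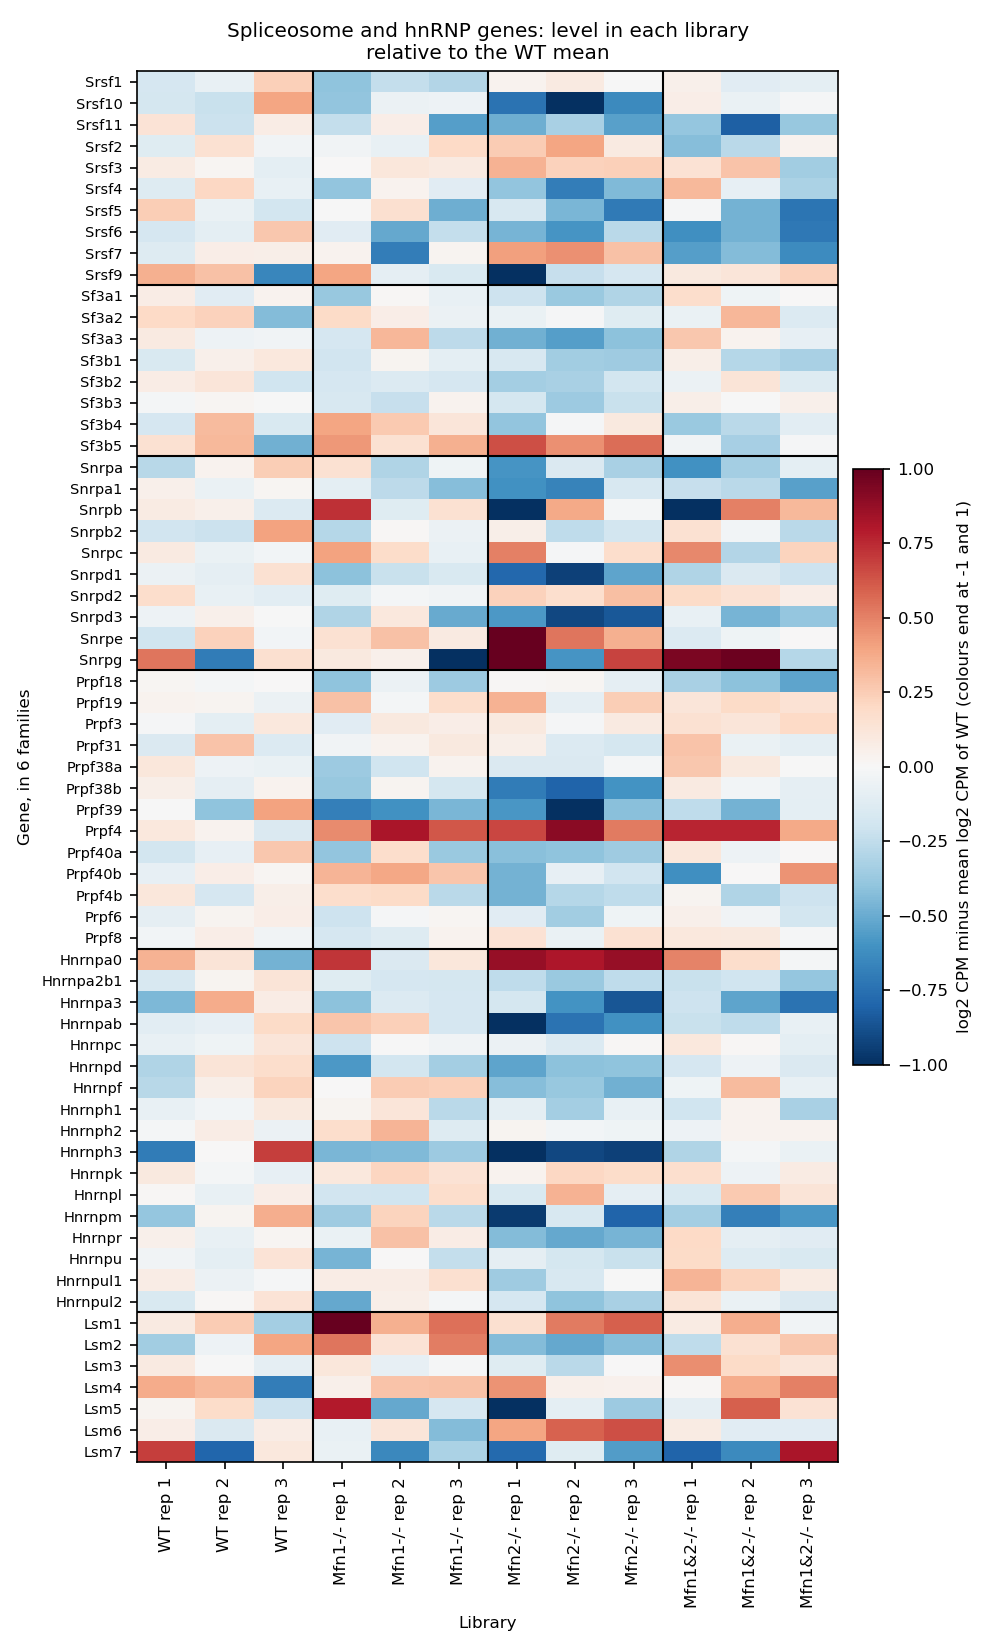
log2 CPM of each of the 65 genes (rows, in 6 families) in each of the 12 libraries (columns), relative to the mean of the 3 WT libraries; blue is lower, red is higher, and colours end at -1 and 1. Blue prevails in the 3 Mfn2-/- columns, where the median gene lies between -0.178 and -0.169.

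By family the summed level in Mfn2-/- was 82.0% of WT for Sf3, 82.7% for Srsf, 86.4% for Snrp, 87.3% for Hnrnp, 93.1% for Prpf and 111.4% for Lsm. The median log2 fold change was -0.44 for Srsf (6 of 10 below 0), -0.30 for Hnrnp (14 of 17), -0.27 for Sf3 (7 of 8), -0.15 for Snrp (6 of 10), -0.13 for Lsm (4 of 7) and -0.10 for Prpf (9 of 13). No difference between families was tested.

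**Figure D3:**
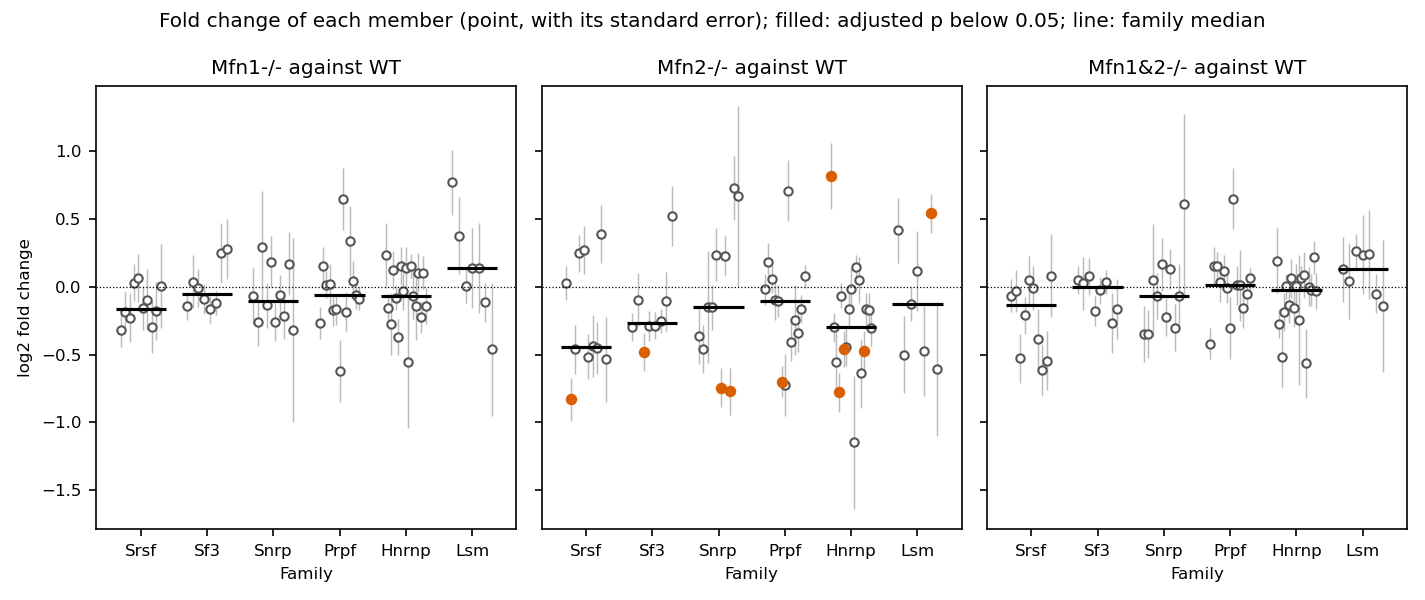
log2 fold change of each of the 65 genes (points, with standard errors) by family in the 3 comparisons with WT; filled points passed an adjusted p of 0.05 and black lines are family medians. Filled points occur only in the panel of Mfn2-/-, where 8 lie below 0 and 2 above, in these edgeR fits.

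Among the snRNP genes, those of 2 of the 7 kinds of protein that make up the Sm ring fell. Snrpd1 (SmD1) stood at 53.8, 52.6 and 62.5 CPM in WT and at 32.6, 29.4 and 38.9 CPM in Mfn2-/-, with no overlap (-0.74 ± 0.14, edgeR adjusted p = 0.00384). Snrpd3 (SmD3) stood at 42.2, 45.2 and 43.4 CPM in WT and at 29.3, 23.2 and 24.1 CPM in Mfn2-/-, again apart (-0.77 ± 0.18, edgeR adjusted p = 0.011). Their partners in the ring did not pass the test. Snrpe was at 11.6 CPM in WT and 19.2 in Mfn2-/- (log2 fold change 0.73, edgeR adjusted p = 0.0551), Snrpd2 at 24.8 and 29, Snrpb at 12 and 10.8, and Snrpg at 1.42 and 2.26 CPM. Thus the messages of 2 ring proteins were lower and those of the other 4 in the table were not called, with estimates on both sides of 0. Protein levels were not measured. The genes of the U1 proteins Snrpa and Snrpc and of the U2 proteins Snrpa1 and Snrpb2 were not called.

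Of the U2 particle genes, Sf3a3, which encodes the subunit of SF3a that contacts U2 near the branch site, fell. It stood at 154, 140.1 and 142 CPM in WT and at 104, 99.2 and 109 CPM in Mfn2-/-, every Mfn2-/- library below every WT library (-0.48 ± 0.14, edgeR adjusted p = 0.0356). Sf3a1 (-0.30), Sf3b1, which holds the branch-point helix (-0.29), Sf3b2 (-0.29) and Sf3b3 (-0.25) were not called, and their log2 fold changes were negative. Sf3b5 had the only positive one of the 8, at 0.52.

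The lowest p of the 65 genes belonged to Prpf38b, a factor with an arginine-serine-rich tail that is related to the B-complex protein Prpf38a. It stood at 136, 123 and 134 CPM in WT and at 80.7, 75.1 and 86.7 CPM in Mfn2-/- (-0.70 ± 0.11, edgeR adjusted p = 0.0013). The 2 groups do not overlap. Prpf38a itself was at 106 ± 7.60 CPM in WT and 98.3 ± 5.09 CPM in Mfn2-/- and was not called. The genes of core tri-snRNP proteins were not called either: Prpf8 stood at 639 and 674 CPM, Prpf6 at 256 and 229, Prpf31 at 50.9 and 47.6 and Prpf3 at 95.2 and 99.1 in WT and Mfn2-/-. Prpf4, which pairs with Prpf3 in the tri-snRNP, was higher than WT in each of the 9 knockout libraries, at 8.07, 7.68 and 6.76 CPM in WT, 10.5, 13.3 and 11.6 in Mfn1-/-, 12, 14.1 and 10.8 in Mfn2-/- and 12.8, 12.8 and 9.76 in Mfn1&2-/-, but did not pass the test (edgeR adjusted p = 0.245, 0.0547 and 0.124). All 3 of these estimates share the WT libraries.

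Of the SR protein genes 1 was called in Mfn2-/-. Srsf10 (SRp38), which represses splicing when it is dephosphorylated, stood at 121, 117 and 179 CPM in WT and at 81.6, 65.6 and 87.5 CPM in Mfn2-/-. The highest of its WT values was that of replicate 3, and all WT values lay above all Mfn2-/- values (-0.83 ± 0.16, edgeR adjusted p = 0.00396). Without WT replicate 3 the log2 fold change was -0.60, with an edgeR adjusted p of 0.0184. Srsf4 (-0.51), Srsf5 (-0.44), Srsf6 (-0.45), Srsf9 (-0.54) and Srsf11 (-0.46) had negative estimates that did not pass, and Srsf1, Srsf2, Srsf3 and Srsf7 had positive ones (0.03, 0.25, 0.27 and 0.39) that did not pass.

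The hnRNP genes held 4 calls, 3 of them lower. Hnrnpab, an RNA-binding protein of the A/B type, stood at 88.5, 89.7 and 109 CPM in WT and at 47.4, 57.1 and 62.6 CPM in Mfn2-/-, the groups lying apart (-0.78 ± 0.14, edgeR adjusted p = 0.00313). Hnrnpd (AUF1), which binds AU-rich elements of messages, stood at 96.2, 129.7 and 134 CPM in WT and at 82.6, 89.3 and 89.9 CPM in Mfn2-/-, apart by a small gap (-0.46 ± 0.13, edgeR adjusted p = 0.0341). Hnrnpr stood at 37.9, 34.8 and 37 CPM in WT and at 27, 25.6 and 26.4 CPM in Mfn2-/- (-0.47 ± 0.15, edgeR adjusted p = 0.0494), close to the threshold. Hnrnpa0, another RNA-binding protein of the A/B type, rose: it stood at 24, 20.5 and 13.4 CPM in WT and at 34.5, 33 and 34.5 CPM in Mfn2-/- (0.82 ± 0.24, edgeR adjusted p = 0.0394). The abundant Hnrnpk, Hnrnpc, Hnrnpu and Hnrnpul2 were not called (0.14, -0.07, -0.17 and -0.30).

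Of the Lsm genes, Lsm6, which sits both in the ring on U6 RNA and in the cytoplasmic ring that takes part in mRNA decay, rose. It stood at 60.5, 52.4 and 61 CPM in WT and at 76.2, 87 and 90.3 CPM in Mfn2-/-, with no overlap (0.54 ± 0.14, edgeR adjusted p = 0.0241). Lsm1, found only in the cytoplasmic ring, was at 20.8, 23.3 and 15.4 CPM in WT, 47.7, 25 and 28.7 in Mfn1-/- and 21.8, 28.1 and 29.6 in Mfn2-/- and was called in neither comparison. The remaining 5 Lsm genes were not called either, with estimates of -0.61 (Lsm7) to 0.12 (Lsm4).

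**Figure D4:**
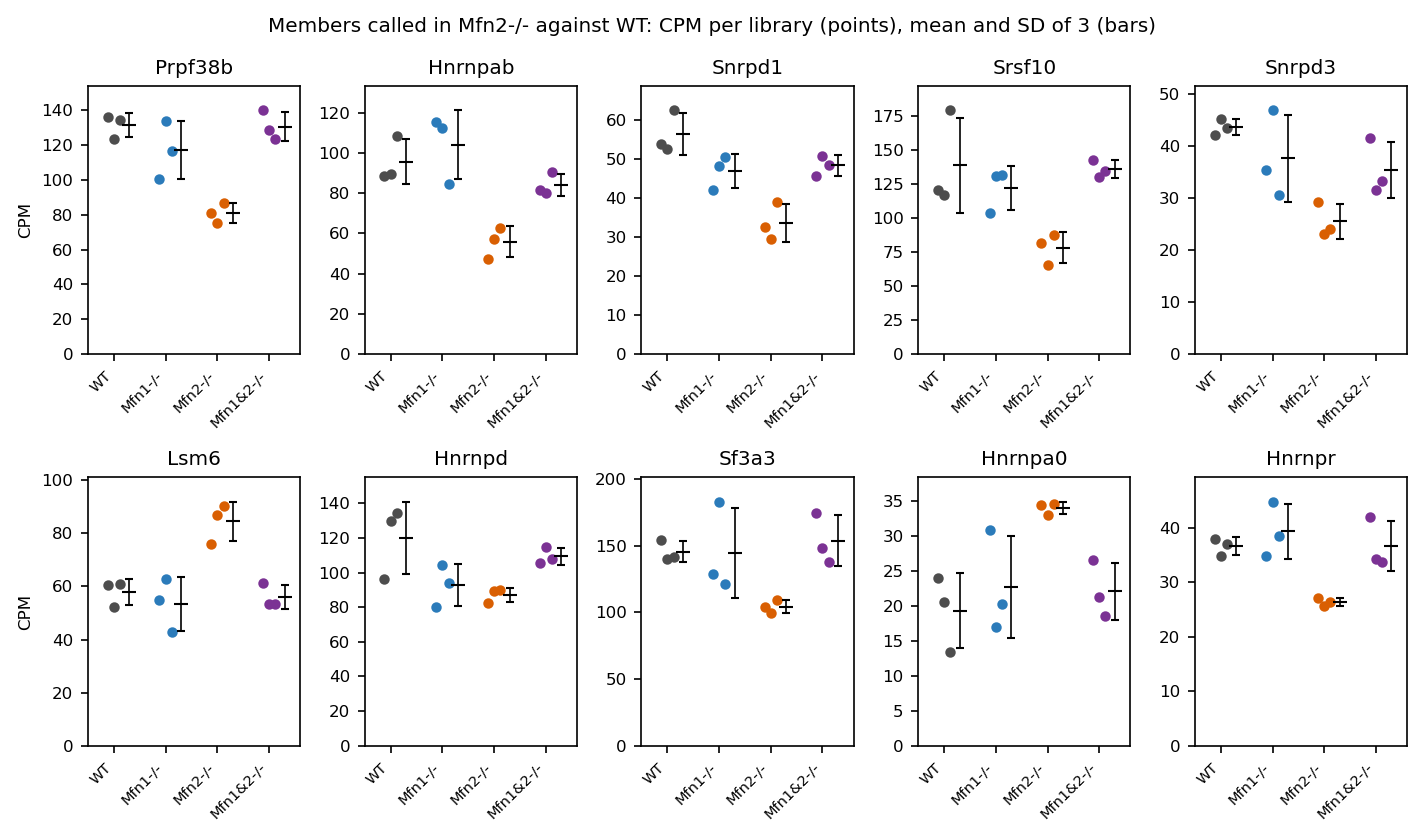
CPM (vertical axes, from 0) in each library of the 10 genes called in Mfn2-/- against WT, by group; points are the 3 libraries and bars the mean and SD. In all 10 panels the Mfn2-/- points lie wholly above (Lsm6, Hnrnpa0) or below the WT points.

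How far these counts rest on single libraries was checked by leaving each out. The count of called genes, 10 with all libraries, was 6 without WT replicate 2 and 7 without WT replicate 3. It was 6, 4 and 6 without Mfn2-/- replicates 1, 2 and 3, and 9 to 13 without other libraries. These counts take in genes newly called in a fit, so fewer of the 10 may remain. Of all genes 11.4% were called with all libraries, and 7.21%, 6.22% and 6.67% without Mfn2-/- replicates 1, 2 and 3. The 4 of 65 without Mfn2-/- replicate 2 were not above the share of all genes. That share was 8.02% without WT replicate 2, and 9.94% to 12.6% without WT replicate 1 or any Mfn1-/- or Mfn1&2-/- library. Without WT replicate 3, 6.41% of all genes were called, the median of the 65 genes was -0.23 and 46 lay below 0. The calls of Prpf38b, Srsf10, Hnrnpab and Snrpd1 held in all 12 such fits, that of Snrpd3 in all but the 1 without Mfn2-/- replicate 2 (edgeR adjusted p = 0.0517), and those of Lsm6, Hnrnpd, Hnrnpa0, Sf3a3 and Hnrnpr were lost in 3, 5, 5, 6 and 9 of them. Lsm6 was lost without WT replicate 2 or Mfn2-/- replicate 2 or 3, Hnrnpd and Hnrnpa0 without WT replicate 2 or 3 or any Mfn2-/- library, and Sf3a3 without any WT or Mfn2-/- library. With library-size scaling in place of TMM, 4 genes were higher and 7 lower. Over all 11385 genes 1373 were then called, 684 of them higher, against 1297 and 515 with TMM. The 65 genes overlap exons of other genes in 25 cases, 20 of them on the opposite strand. Among the 10 called, Hnrnpab, Hnrnpd, Hnrnpr and Snrpd3 share exon sequence with an opposite-strand gene, and since the strand setting of the counting is not given, reads of such pairs cannot be told apart.

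The 65 genes lie on 18 chromosomes. On chromosome 4, which carries Mfn2, lie 6 of them, and 3 of the 10 called (Sf3a3, Srsf10 and Hnrnpr, 23.1, 12 and 11.5 Mb from Mfn2). The share of called genes among all genes of chromosome 4 was not computed, so these counts have nothing to be set against. None of the 65 lies within 10 Mb of either mitofusin gene, a limit just short of Hnrnpr and Srsf10. Of genes named below outside the 65, Khdrbs1, Sfpq, Ppih and Magoh are among those on chromosome 4, 18.1, 20.8, 28.6 and 40.0 Mb from Mfn2. What part position had was not tested. The called genes are, in GRCm38, Prpf38b on chromosome 3 (108902805 to 108911727), Srsf10 on chromosome 4 (135855747 to 135869908), Sf3a3 on chromosome 4 (124714776 to 124732460), Hnrnpr on chromosome 4 (136310942 to 136359447), Hnrnpab on chromosome 11 (51600100 to 51606847), Snrpd3 on chromosome 10 (75517551 to 75537381), Hnrnpd on chromosome 5 (99955935 to 99978938), Snrpd1 on chromosome 18 (10617775 to 10642079), Lsm6 on chromosome 8 (78804865 to 78821140) and Hnrnpa0 on chromosome 13 (58125879 to 58128556).

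Upstream sequence shows what the rule and the counts did not use. RefSeq promoter windows on GRCm38.p6 were matched for 56 of the 65 genes, and the 250 bases before the listed start were searched on both strands for 6 motifs. The ETS core CCGGAA was found in 48.2% of the 56, in 23.0% of the 8560 genes of the count table with a window and in 12.2% of all 27025 windows. The CCAAT box CCAAT was found in 46.4%, 36.9% and 34.5%, the GC box GGGCGG in 66.1%, 59.0% and 32.9%, the YY1 core ATGGCG in 14.3%, 9.15% and 5.77%, and TATAAA in 8.93%, 6.31% and 13.0%. The palindromic NRF1 motif was in none of the 56, in 1.76% of the table genes and in 0.781% of all. Median GC content was 59.2% for the 56, 60% for the table genes and 52% for all windows. These shares are descriptions of letters in a window and had no test.

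For the called genes the 150 bases before the start are printed, so that windows of genes that fell (Hnrnpab, Hnrnpr, Prpf38b) can be read beside those of genes that rose (Hnrnpa0, Lsm6); those with an annotated exon in the window are left out. They run 5′ to 3′ on the gene's strand (minus for all but Hnrnpr), with capitals where one of the 6 motifs matches on either strand, at chr11:51606882-51607031, chr4:136310792-136310941, chr3:108911730-108911879, chr13:58128557-58128706 and chr8:78821153-78821302 in the order of the lines.
Hnrnpab: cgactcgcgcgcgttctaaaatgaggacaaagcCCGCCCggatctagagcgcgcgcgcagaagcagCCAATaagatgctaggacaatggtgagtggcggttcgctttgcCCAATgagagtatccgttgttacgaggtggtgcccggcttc
Hnrnpr: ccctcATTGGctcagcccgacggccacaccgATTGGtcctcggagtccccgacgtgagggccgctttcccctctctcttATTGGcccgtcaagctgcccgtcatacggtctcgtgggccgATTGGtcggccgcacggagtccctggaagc
Prpf38b: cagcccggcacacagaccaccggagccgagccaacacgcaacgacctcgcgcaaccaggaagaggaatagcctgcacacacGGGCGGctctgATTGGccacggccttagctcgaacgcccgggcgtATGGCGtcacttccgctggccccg
Hnrnpa0: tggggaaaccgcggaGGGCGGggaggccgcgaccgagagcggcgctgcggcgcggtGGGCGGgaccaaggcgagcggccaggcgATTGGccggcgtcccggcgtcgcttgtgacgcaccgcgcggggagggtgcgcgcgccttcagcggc
Lsm6: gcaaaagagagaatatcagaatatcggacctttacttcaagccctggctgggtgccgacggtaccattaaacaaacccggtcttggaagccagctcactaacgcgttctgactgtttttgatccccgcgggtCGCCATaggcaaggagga
CCAAT boxes in 1 or the other orientation stand in the windows of both directions of change (Hnrnpab, Hnrnpr, Prpf38b and Hnrnpa0), and the YY1 core likewise (Prpf38b and Lsm6), so genes that fell and genes that rose both hold these letters.

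Loss of mitofusin 1 alone was compared next. In Mfn1-/- against WT none of the 65 genes was called, by edgeR (0.228% of all genes) or by DESeq2 (1.97% of all genes), and 6 of 65 had an unadjusted p below 0.05, against 12.8% of all genes. The median log2 fold change was -0.07 against -0.01 for all genes, and 38 of 65 lay below 0. The smallest p belonged to Lsm1 (0.77 ± 0.24, edgeR adjusted p = 0.193), whose highest value, 47.7 CPM, was that of Mfn1-/- replicate 1. In the other families the smallest p belonged to Prpf4, Hnrnpd (-0.37), Srsf1, an essential SR protein (-0.32), Snrpd1 (-0.26) and Sf3b2 (-0.17). Hnrnpd and Snrpd1, called in Mfn2-/-, thus had estimates of the same sign here without passing, and the WT libraries are common to both comparisons.

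When both mitofusins were lost, none of the 65 genes passed the test against WT. In Mfn1&2-/- against WT none was called by edgeR, against 4.21% of all genes, and 9 had an unadjusted p below 0.05 (18.6% of all genes). DESeq2 called 2 (7.33% of all genes). Without Mfn1-/- replicate 2 edgeR called 1, and without WT replicate 3 none. The median log2 fold change was -0.01, against 0.00 for all genes, 34 of 65 lay below 0, and the summed level was 98.3% of WT, at 7218, 6612 and 6396 CPM in the 3 libraries. Prpf18, a factor of the second catalytic step, came closest: it stood at 83.5, 80.9 and 82.2 CPM in WT and at 65.7, 61.8 and 57.1 CPM in Mfn1&2-/- (-0.42 ± 0.12, edgeR adjusted p = 0.0551). The SR protein Srsf6 followed, at 21.1, 22.1 and 28.6 CPM in WT and 15.5, 17.1 and 14.4 CPM in Mfn1&2-/- (-0.61 ± 0.19, edgeR adjusted p = 0.0862). Each of these pairs of groups lies apart, and neither passed. In the remaining families the smallest p belonged to Hnrnpa2b1 (-0.27), Lsm3 (0.26), Snrpa1 (-0.35) and Sf3b1 (-0.18). Against Mfn1-/- the Mfn1&2-/- libraries also held no called gene among the 65 by edgeR (5.36% of all genes) or DESeq2 (9.17%), with 4 at an unadjusted p below 0.05 (20.7%) and a median of 0.00.

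Against Mfn2-/- alone, the double knockout differed in 13 of 65 genes (20%, against 10.2% of all genes): 8 were higher (6.14% of all genes were) and 5 lower (4.08%). DESeq2 called 19 of 65, against 1570 of 11385 genes (13.8%). The 2 groups did not overlap for 30 of 65 genes, against 3586 of 11385 (31.5%). The median log2 fold change was 0.11 against -0.01, and 45 of 65 lay above 0. Of the 15 oocyte markers 1 was higher there (Npm2) and 4 lower (Mos, Bmp15, Kit and Dppa3), and of the 11 granulosa markers 1 was lower (Kitl). The comparison shares its Mfn2-/- libraries with that of Mfn2-/- and WT, so values of the 2 are given side by side and not as support for each other. Prpf38b stood at 80.7, 75.1 and 86.7 CPM in Mfn2-/- and at 139.8, 129 and 123 CPM in Mfn1&2-/- (0.69 ± 0.11, edgeR adjusted p = 0.00178), and the WT values given above lie within the range of the latter. Srsf10 stood at 143, 130.2 and 135 CPM in Mfn1&2-/- (0.80 ± 0.16, edgeR adjusted p = 0.00528), all above the Mfn2-/- libraries. Hnrnpab stood at 81.5, 79.9 and 90.5 CPM (0.59 ± 0.14), Sf3a3 at 175, 149 and 137 CPM (0.56 ± 0.14) and Snrpd1 at 45.5, 50.9 and 48.6 CPM (0.52 ± 0.14) in Mfn1&2-/-. These 5 genes were called lower in Mfn2-/- than in WT and higher in Mfn1&2-/- than in Mfn2-/-. Lsm6 went the other way, at 61.4, 53.3 and 53.4 CPM in Mfn1&2-/- (-0.59 ± 0.14, edgeR adjusted p = 0.0169).

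The other 7 called here had not been called in Mfn2-/- against WT. Hnrnpf, which binds runs of G, stood at 59, 61.1 and 56.7 CPM in Mfn2-/- and 76.8, 98.7 and 75.3 CPM in Mfn1&2-/- (0.51 ± 0.14, edgeR adjusted p = 0.0351). Sf3a1 rose from 427 ± 24.7 to 543 ± 44 CPM (0.34 ± 0.10) and Sf3b3 from 262 ± 17.5 to 320.1 ± 7.63 CPM (0.29 ± 0.09), so that 3 of 8 Sf3 genes were higher than in Mfn2-/-. Srsf7 (9G8), an SR protein that also takes part in mRNA export, stood at 20.6, 21.3 and 18.9 CPM in Mfn2-/- and 10.5, 11.4 and 9.92 CPM in Mfn1&2-/-, apart from each other (-0.93 ± 0.22, edgeR adjusted p = 0.0132). Its WT libraries lay between them, at 14.1, 16.2 and 16.1 CPM. Snrpe fell from 19.2 ± 6.16 to 11 ± 0.546 CPM (-0.80 ± 0.23), Srsf2 from 100.1 ± 10.6 to 72.8 ± 12.1 CPM (-0.46 ± 0.14) and Prpf18 from 81.1 ± 3.38 to 61.5 ± 4.30 CPM (-0.40 ± 0.12). The count of called genes, 13 with all libraries, was 4, 3 and 7 without Mfn2-/- replicates 1, 2 and 3. It was 8, 5 and 7 without Mfn1&2-/- replicates 1, 2 and 3, new calls included. Leaving out any WT or Mfn1-/- library gave 10 to 13. Prpf38b and Srsf10 kept their call in all 12 fits, and Srsf7 in all but that without Mfn2-/- replicate 2 (edgeR adjusted p = 0.0503). Hnrnpab was lost without Mfn2-/- replicate 1 or Mfn1&2-/- replicate 3, Sf3a3 without Mfn2-/- replicate 1 or 2 or Mfn1&2-/- replicate 1, and Lsm6 without Mfn2-/- replicate 2 or 3 or Mfn1&2-/- replicate 2 or 3. The calls of Snrpd1, Hnrnpf, Prpf18, Snrpe, Srsf2, Sf3a1 and Sf3b3 were lost in 4, 4, 6, 7, 7, 9 and 10 of the 12 fits.

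The test of whether the effect of Mfn2 loss differed with and without Mfn1 is the interaction of the 2 losses. It was called for 4 of 65 genes (6.15%, against 4.13% of all genes), all 4 higher (2.92% of all genes): Prpf38b (0.86 ± 0.16, edgeR adjusted p = 0.011), Srsf10 (0.98 ± 0.22, adjusted p = 0.0254), Snrpd1 (0.79 ± 0.20, adjusted p = 0.0403) and Hnrnpd (0.70 ± 0.19, adjusted p = 0.0473). DESeq2 called 9 of 65, against 903 of 11385 genes (7.93%). A positive value means that the log2 change from Mfn1-/- to Mfn1&2-/- lay above that from WT to Mfn2-/-. The median over the 65 genes was 0.17 against -0.01 for all genes. With library-size scaling the median of all genes moved to -0.12, that of the 65 to 0.06, and the calls fell to 2. Over all genes the calls went from 470 to 447 with that scaling. The 4 calls became 2 without WT replicate 2, Mfn2-/- replicate 1 or Mfn1&2-/- replicate 2 or 3, and 1 without WT replicate 3, Mfn1-/- replicate 1 or Mfn2-/- replicate 2. Of all genes 2% to 3.21% were called in the fits with 2 calls and 1.41% to 1.75% in those with 1. Prpf38b was called in every fit, Srsf10 in all but the 3 last named (highest edgeR adjusted p = 0.0720), and the calls of Snrpd1 and Hnrnpd were lost in 8 and 10 of the 12. Hnrnpd, for example, stood at 79.9, 105 and 93.9 CPM in Mfn1-/- and at 106, 115 and 108 CPM in Mfn1&2-/-, the latter higher, while its Mfn2-/- libraries lay below WT.

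Further genes of the splicing pathway were taken from 9 lists of other factors, which hold 156 genes in the table. The lists were chosen with earlier results of these data known, so their shares are descriptions and not independent support. In Mfn2-/- against WT 32 of 156 were called (20.5%, beside 11.4% of all genes), with a median of -0.10. Of them 27 were lower (17.3% of the 156, against 6.87% of all genes) and 5 higher (3.21%, against 4.52%). The lists were 21 U1 and U2 factors (0 higher, 7 lower), 19 tri-snRNP and B complex proteins (0 and 4), 15 genes of the Prp19 complex and its partners (1 and 1), 20 catalytic and release factors (0 and 2), 11 of the minor spliceosome (1 and 2), 10 of the exon junction complex (1 and 4), 12 of the SMN complex and snRNP assembly (0 and 2), 41 splicing regulators (2 and 5) and 7 SR protein kinases (0 and 0). In Mfn1-/- against WT none of the 156 was called by edgeR (0.228% of all genes). An unadjusted edgeR p below 0.05 was found for 17 of 156, against 1456 of 11385 genes (12.8%). DESeq2 called 2 of 156, against 1.97% of all genes. In Mfn1&2-/- 5 were called against WT (3.21%, against 4.21% of all genes), 7 against Mfn1-/- (4.49%, against 5.36%) and 25 against Mfn2-/- (16%, against 10.2%). Of these 25, 22 were higher (14.1% of the 156, against 6.14% of all genes) and 3 lower (1.92%, against 4.08%). In the interaction 19 were called, all higher (12.2%, against 2.92% of all genes).

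Of the 7 U1 and U2 factors called lower in Mfn2-/-, out of 21, 4 are described. Snrnp70 (U1-70K), the U1 protein that recruits SR proteins, stood at 134, 166 and 138 CPM in WT, 100.4, 134 and 129 in Mfn1-/-, 71.6, 62.5 and 75.3 in Mfn2-/- and 168, 146 and 144 in Mfn1&2-/-. All 3 Mfn2-/- libraries lay below all 9 others (-1.06 ± 0.13 against WT, edgeR adjusted p = 0.000125). U2af1, which reads the AG at the intron's end, stood at 58.3, 81.9 and 69.2 CPM in WT and 38, 29.5 and 36 in Mfn2-/- (-1.02 ± 0.15), and at 74.6, 61.5 and 62.1 in Mfn1&2-/- (0.94 ± 0.15 against Mfn2-/-). Sf1, the branch-point binding protein, stood at 156, 175 and 166 CPM in WT, 121, 131 and 123 in Mfn1-/-, 118, 101 and 107 in Mfn2-/- and 157, 139 and 120.2 in Mfn1&2-/- (-0.61 ± 0.11 in Mfn2-/- against WT). For Sf1 the Mfn1-/- libraries also lay below WT, at a difference that did not pass. Rbm17 (SPF45), which acts at 3′ splice sites, fell from 243 ± 33.4 to 151 ± 17 CPM (-0.68 ± 0.14). Luc7l2 was called in the interaction alone of the 6 comparisons, with mean levels of 85.6, 65.7, 67.5 and 81.3 CPM in WT, Mfn1-/-, Mfn2-/- and Mfn1&2-/-. Rbm25, a U1-associated protein, was higher in Mfn1&2-/- than in Mfn1-/- (0.61 ± 0.14, lost in 2 of the 12 fits).

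Of the tri-snRNP and B complex list, Sart1, Snrnp27 and Usp39 fell in Mfn2-/- (-0.63 ± 0.13, -0.56 ± 0.14 and -0.48 ± 0.15). Usp39 was also lower in Mfn1&2-/- than in WT, at 60.0, 80.7 and 50.6 against 102, 90.2 and 89.6 CPM (-0.56 ± 0.15). Its Mfn1-/- libraries, at 79.3, 79.1 and 77.9 CPM, also lay below WT and did not pass. The Usp39 calls were lost in 8 and 10 of the 12 fits without a library, and both with a replicate block. Nhp2l1, which binds U4 RNA, was lower in Mfn1&2-/- than in Mfn1-/- and Mfn2-/- (-0.61 ± 0.17 and -0.58 ± 0.17), calls that were lost in 10 and 6 of the 12 fits, with a replicate block and with only the groups compared. The Mfn2-/- call of Snrnp27 was lost in 3 of the 12 fits. In the minor spliceosome, which removes a rare class of introns, Zrsr2 and Snrnp48 fell in Mfn2-/- (-0.67 ± 0.16 and -0.95 ± 0.25) and Rbm48 rose (0.51 ± 0.13), calls lost in 3, 4 and 3 of the 12 fits. Syf2, of the list of the Prp19 complex and its partners, fell in Mfn2-/- (-0.55 ± 0.13, lost in 2 of the 12).

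Later steps were represented as well. Slu7, needed for choice of the 3′ splice site, stood at 173, 204 and 279 CPM in WT and 103, 93.9 and 104 in Mfn2-/- (-1.12 ± 0.16, edgeR adjusted p = 0.000451), and at 234, 183 and 232 in Mfn1&2-/-. Mfap1b, a B complex gene with a near-identical copy (Mfap1a) that makes its reads uncertain, stood at 14.6 ± 1.88 CPM in WT, 5.98 ± 1.16 in Mfn2-/- and 15 ± 1.83 in Mfn1&2-/-. Magoh and Rbm8a (Y14), the pair at the core of the exon junction complex, both fell: Magoh from 179.7 ± 12.9 to 120.4 ± 6.71 CPM (-0.58 ± 0.09) and Rbm8a from 54.3 ± 14.2 to 22.7 ± 1.38 CPM (-1.26 ± 0.23). In Mfn1&2-/- they stood at 201 ± 11.3 and 51.9 ± 16.4 CPM. The exon junction and SR-related genes Pnn and Rnps1 fell too (-0.77 ± 0.17 and -0.62 ± 0.13), and the mRNA export factor gene Alyref2 rose from 3.08 ± 3.05 to 14.5 ± 5.57 CPM (2.24 ± 0.64). The call of Alyref2 was lost without WT replicate 1 or 2 or Mfn2-/- replicate 1 or 3, and without WT replicate 3 its log2 fold change was 3.45. Acin1 did not pass there (-0.43 ± 0.18) and was higher in Mfn1&2-/- than in Mfn2-/- (0.63 ± 0.18, lost in 7 of the 12 fits). Ccdc130 fell from 207 ± 51.4 to 106 ± 8.15 CPM (-0.96 ± 0.19), and the helicase Dhx38 was higher in Mfn1&2-/- than in Mfn2-/- (0.44 ± 0.13, lost in 7 of the 12 fits, with library-size scaling, with a replicate block and with only the groups compared).

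Gemin6, part of the SMN complex that loads Sm rings onto snRNAs, fell from 26.4 ± 1.79 to 11.1 ± 1.99 CPM (-1.24 ± 0.20), against 28.7 ± 4.69 CPM in Mfn1&2-/-. Its partner Gemin8 stood at 39.3 ± 4.24 and 28.2 ± 2.68 CPM in WT and Mfn2-/- (-0.47 ± 0.15), a call lost in 10 of the 12 fits, with library-size scaling, with a replicate block and with only the groups compared (edgeR adjusted p up to 0.170). Of the splicing regulators, Sfpq and Nono, which form a pair of nuclear RNA-binding proteins, stood at 320.1, 320.0 and 388 and 416, 405 and 439 CPM in WT and at 229, 203 and 230.2 and 311, 313 and 318 CPM in Mfn2-/- (-0.64 ± 0.12 and -0.42 ± 0.09). Rbfox2 also fell (-0.56 ± 0.11). Slu7, Mfap1b, Magoh, Rbm8a and Gemin6 were each called in Mfn1&2-/- against Mfn2-/- too (log2 fold change 1.11, 1.32, 0.74, 1.19 and 1.36).

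**Figure D5:**
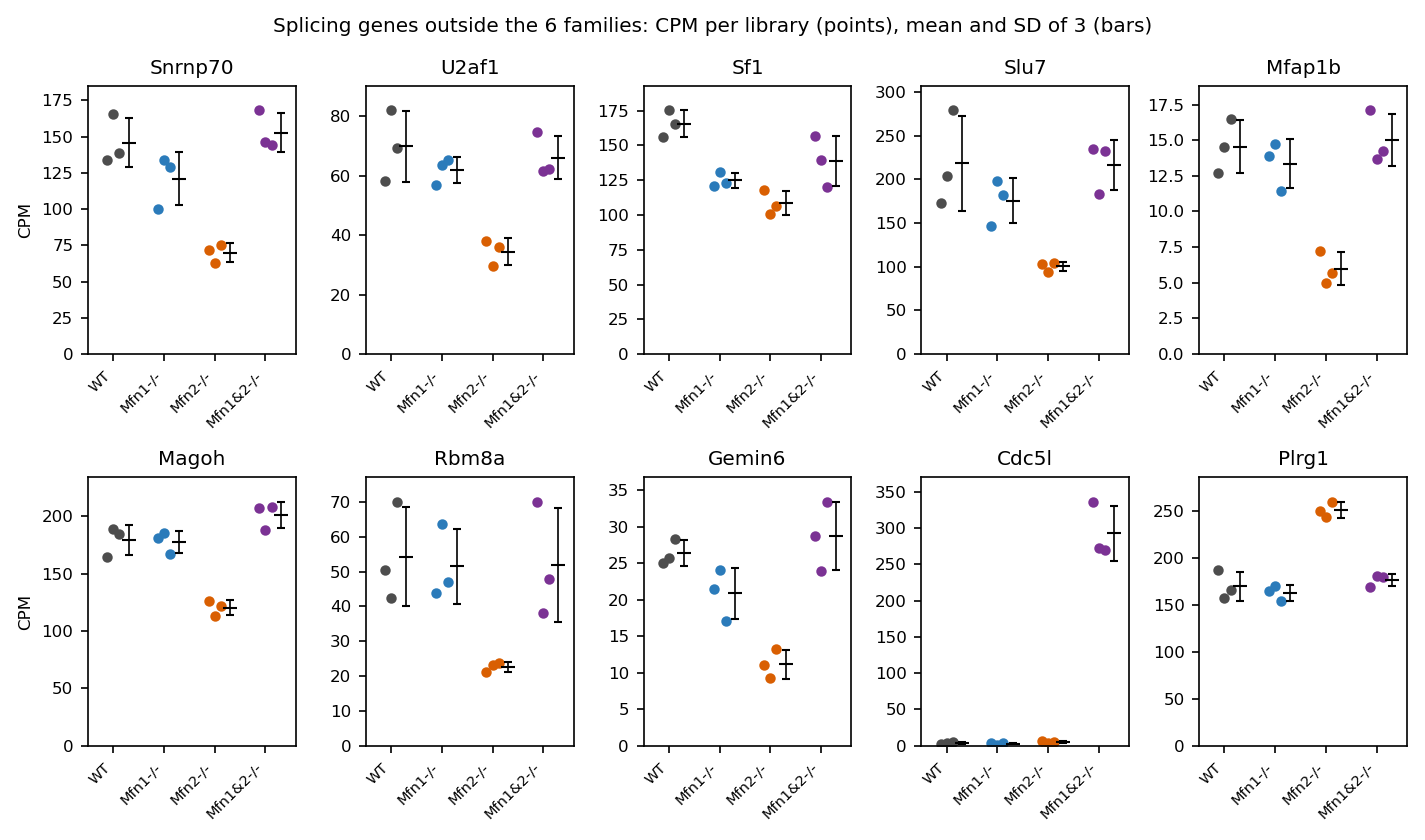
CPM (vertical axes, from 0) of 10 splicing genes outside the 6 families in each library, by group; points are the 3 libraries and bars the mean and SD. The Mfn2-/- points of Snrnp70, Slu7, Magoh and Gemin6 lie below all others, those of Plrg1 above all others, and Cdc5l is high in Mfn1&2-/- alone of the 4 groups.

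Some genes of the pathway rose. Khdrbs1 (Sam68), a signal-regulated splicing regulator, stood at 71.2, 63.2 and 55.1 CPM in WT, 84.3, 79.4 and 53 in Mfn1-/-, 119.7, 178 and 189 in Mfn2-/- and 115, 129.8 and 144 in Mfn1&2-/-, both groups without Mfn2 lying above WT (1.36 ± 0.19 and 1.03 ± 0.19). Ppih, a cyclophilin of the tri-snRNP, rose in Mfn1&2-/- from 20.1 ± 0.263 to 33.4 ± 2.96 CPM (0.73 ± 0.17, edgeR adjusted p = 0.0241), a call lost without any 1 of the 3 WT libraries or without Mfn1&2-/- replicate 2 or 3. Mbnl1, a muscleblind splicing regulator, fell there from 8.52 ± 3.14 to 2.88 ± 1.45 CPM (-1.57 ± 0.39), a call lost without WT replicate 1 or 2 or Mfn1&2-/- replicate 1 or 2 and with only the groups compared (edgeR adjusted p up to 0.124). Of the 5 calls of Mfn1&2-/- against WT, 2 were kept without WT replicate 1 or 2, 3 without WT replicate 3 or any Mfn1&2-/- library, and 4 or 5 without a library of the other groups. Those of Cdc5l and Khdrbs1 held in all 12 fits. The count of calls against Mfn2-/-, 25 with all libraries, was 15 and 16 without Mfn2-/- replicates 2 and 3, new calls included. Of all genes 5.01% and 5.54% were called in these 2 fits. The count in the interaction, 19 with all libraries, was 10 without WT replicate 3 and 9 and 11 without Mfn1-/- replicates 1 and 3. It was 12, 8 and 9 without Mfn2-/- replicates 1, 2 and 3, and 10 and 12 without Mfn1&2-/- replicates 1 and 2. In these fits of the interaction 1.41% to 3.21% of all genes were called.

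The Prp19 complex joins at activation and holds Cdc5l, Plrg1, Bcas2 and Ctnnbl1 besides the ubiquitin ligase Prpf19. Cdc5l stood at 1.92, 3.12 and 5.68 CPM in WT, 3.46, 1.5 and 3.16 in Mfn1-/-, 6.46, 3.24 and 5.49 in Mfn2-/- and 336, 272 and 270.1 in Mfn1&2-/- (6.36 ± 0.33 against WT). Of these 4 partners only Plrg1 was called in any comparison, and not against WT in Mfn1&2-/-. Prpf19 stood at 40.1 ± 1.39 CPM in WT and 44.6 ± 1.01 in Mfn1&2-/-, Bcas2 at 13.2 ± 4.54 and 14.7 ± 4.29, Ctnnbl1 at 211 ± 32 and 199 ± 16.8, and Cwc15 at 51.9 ± 13 and 58.4 ± 4.51 CPM, with no call in the 6 comparisons. Plrg1 rose in Mfn2-/- alone of the 3 comparisons with WT, from 170.0 ± 15.3 to 252 ± 8.22 CPM (0.57 ± 0.09), and was lower in Mfn1&2-/- than in Mfn2-/- (-0.51 ± 0.09). Crnkl1, a further factor of the activated spliceosome, also stood lower in Mfn1&2-/- than in Mfn2-/-, at 328, 404 and 250.5 against 746, 616 and 726 CPM (-1.09 ± 0.22).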

How the data were processed

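Total RNA of 12 pools was extracted with a PicoPure kit depleted of rRNA and made into libraries with a SMARTer stranded low-input kit, then read in pairs on a HiSeq, per the labels' protocols. Per the submitters' processing notes the tools were STAR 2.7.0a, FastQC 0.11.7 and edgeR, on mm10. The annotation, the strand setting and the handling of multi-mapped reads are not stated in the sources used here. The deposited table of the authors holds raw counts per gene. The deposited signal table holds CPM and equalled TMM-scaled CPM computed here within a relative 5.07e-15. One genotype label reads "Mn2-/-"; that pool was placed in Mfn2-/- by its description.

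Counts of all 12 libraries (11575357 to 16024893 in total) were fitted with edgeR 4.0.16 in R 4.3.3 (TMM, filterByExpr, which kept all 11385 genes, 8 residual degrees of freedom, 6 comparisons), and the fit was tested on simulated data. A standard error is the size of the log2 fold change over the root of its F. Alternatives were RLE, library-size scaling, the DESeq2 1.42.0 Wald test, no filter, at least 5 CPM in 3 libraries, a replicate block, only the groups compared, and each library left out. Exon lengths and positions are from GENCODE vM21, promoters from RefSeq; protein sequences were not used here. The rule for the members uses symbols and no measured value, but members and lists were chosen with earlier results of these data known. Named are all called members, the highest per kb and the smallest p per family in each comparison with WT, up to 6 called genes per list (some are not reported here), and Cdc5l with its complex; other names complete a family or complex.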

Additional observations from a re-analysis of the deposited data

Results flagged for a closer look

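The effect of Mfn2 loss on the log2 scale differed between oocytes with and without Mfn1 for 22 of the named genes, which were named partly for being called, by the interaction term of the edgeR quasi-likelihood fit with Benjamini-Hochberg adjustment (4.13% of all genes, 2.92% with a positive value). Among the spliceosome and hnRNP genes these were Srsf10 (0.98), Prpf38b (0.86), Snrpd1 (0.79) and Hnrnpd (0.70). Of the U1 and U2 factors these were Snrnp70 (1.40), U2af1 (1.11), Sf1 (0.76), Rbm17 (0.73) and Luc7l2 (0.65). Of the exon junction list they were Rbm8a (1.27), Acin1 (1.02), Pnn (0.94) and Magoh (0.76). Of the remaining lists they were Cdc5l (6.25), Gemin6 (1.70), Mfap1b (1.45), Slu7 (1.43), Snrnp48 of the minor spliceosome (1.39), Sfpq (0.90), Syf2 (0.81), Sart1 (0.76) and Nono (0.49). All 22 values were positive, as were 70.9% of the interaction calls over all genes, a share that was 46.3% with library-size scaling. Of the 22 calls 9 held under every alternative (Prpf38b, Cdc5l, Snrnp70, U2af1, Sf1, Slu7, Gemin6, Magoh and Sfpq). Without single libraries the call of Nono was lost in 11 of 12 fits, those of Hnrnpd and Snrnp48 in 10, of Acin1 and Rbm17 in 9, of Snrpd1, Rbm8a, Pnn and Sart1 in 8, of Luc7l2 in 7, of Mfap1b in 4 and of Srsf10 and Syf2 in 3.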

How the results depend on the processing

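Of 27 calls among the 65 genes, 7 held under every alternative, and over 509 values 386 stayed on their side of the threshold, 123 no longer passed and 0 changed sign (0 of 1992 over all named genes). The counts of called genes among the 65 were 18 (Mfn2-/- against WT), 2 (Mfn1&2-/- against WT) and 9 (interaction) with DESeq2, and 1 and 2 for the last pair with library size only. For that pair 487 and 447 of all genes were called with library size only. With at least 5 CPM in 3 libraries 1 was called in Mfn1&2-/- against WT. Over single libraries left out the counts ran from 0 to 0 in Mfn1-/- against WT, 4 to 13 in Mfn2-/- against WT, 0 to 1 in Mfn1&2-/- against WT, 0 to 0 in Mfn1&2-/- against Mfn1-/-, 3 to 13 against Mfn2-/- and 1 to 5 in the interaction. For the 156 other genes DESeq2 called 2, 11 and 11 in Mfn1-/- against WT, Mfn1&2-/- against WT and Mfn1&2-/- against Mfn1-/- (1.97%, 7.33% and 9.17% of all genes). The fit of only the groups compared called 2 in Mfn1&2-/- against WT. Their ranges without single libraries were 0 to 0, 22 to 33, 2 to 5, 5 to 8, 15 to 27 and 8 to 19 in the order above. Of all genes 0.0264% to 0.448%, 6.22% to 12.6%, 2.48% to 4.83%, 2.59% to 6.05%, 5.01% to 11.4% and 1.41% to 4.08% were called in these fits, in the same order. The cause of these shifts was not tested. Library-size scaling moved the higher share of all calls from 39.7% to 49.8% (Mfn2-/- against WT), from 51.5% to 38.5% and from 60.1% to 48.2% (Mfn1&2-/- against Mfn1-/- and Mfn2-/-) and from 70.9% to 46.3% (interaction). Whether the replicate numbers pair libraries was not settled. Deviations from the group means correlated at -0.134 to 0.179 over same-numbered pairs and at -0.260 to 0.183 over the others. Of 12 libraries, 7 correlated best with a library of their own number. The numbers are those of the sample titles. The descriptions of all WT, Mfn1-/- and Mfn1&2-/- pools carry other numbers, which were not used. The replicate block and these correlations therefore rest on the order of the titles, which may not pair pools handled together. With the replicate number as a block 8 of the 65 genes were called in Mfn1&2-/- against Mfn2-/- and 11 of the 156 in the interaction. With 3 libraries per group and genes near 2 CPM such as Snrpg, small changes were not detectable at this depth.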
